A study of Mus musculus with 9 samples.

Results

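The genes described here are 10 Wnt target genes of hepatocytes around the central vein (pericentral hepatocytes): Lgr5, Rnf43, Znrf3, Axin2, Tbx3, Glul, Oat, Slc1a2, Slc1a4 and Rhbg. They were chosen by name, and each was read at the brightest of its probe sets, the one with the highest mean over the 9 arrays, out of 24 probe sets that carry a member's symbol alone. They are 10 of the 18193 genes and 24 of the 45037 probe sets (manufacturer's controls left out) that were tested. Liver RNA of female C57BL/6J mice was hybridised to Affymetrix whole-genome mouse expression arrays, 3 arrays a group. Control mice received no antibiotic. Early-life pulsed antibiotic treatment (PAT) put either amoxicillin or tylosin in the drinking water. It ran in 3 courses, on days 10 to 15, 28 to 31 and 37 to 40 of life. The water was made up to give 25 mg of amoxicillin or 50 mg of tylosin per kg body mass a day. Those doses rest on an estimated water intake. The first course fell before weaning, and by the study's own account the earliest dose came through the mother's milk. All groups were fed high-fat chow after the last course. The liver was collected long after it, at 24 weeks of age by the sample labels and 22 weeks by the series' design text. Litters were kept within 1 treatment group and the litter of each array is not given, so litter and treatment cannot be told apart, and P values measure the spread between these arrays only.

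In the liver lobule, endothelial cells of the central vein secrete Wnt ligands and R-spondins, which keep β-catenin active in the neighbouring hepatocytes. Frizzled and LRP receptors carry the signal, LGR receptors bind R-spondins and so protect the Frizzleds from the ubiquitin ligases RNF43 and ZNRF3, and β-catenin that escapes its destruction complex acts with TCF and LEF factors on target genes. The pericentral targets include both feedback parts of the pathway and the machinery by which the last hepatocytes before the vein take up glutamate and ammonium and make glutamine, whereas the urea cycle is strongest around the portal vein.

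No member met the call used here, an unadjusted limma P under 0.01 with a log2 fold change over 0.5 either way. With amoxicillin 0 of 10 members were called, where 1.28% of all genes were. With tylosin 0 of 10 were called, against 1.45% of all genes, and between the antibiotics 0 of 10, against 0.110%. Over the 24 probe sets of the members the counts were also 0 in each comparison, where 1.35%, 1.42% and 0.0933% of all probe sets were called. At an unadjusted P under 0.05 the counts were 2 members with amoxicillin (Lgr5 and Znrf3, both higher) and 3 with tylosin (Lgr5, Oat and Slc1a2, all higher), and 0 between the antibiotics. That is to be read against 15.5%, 16.6% and 3.13% of all genes, which for 10 genes are shares of the same order. The same genes had PAT arrays that all lay above all 3 control arrays: Lgr5 and Znrf3 with amoxicillin, where 21.0% of all genes did not overlap, and Lgr5, Oat and Slc1a2 with tylosin, where 17.4% did not. Between the antibiotics 1 member did not overlap, Lgr5, lower with tylosin, against 6.13% of all genes. The median log2 fold change of the 10 members was 0.04 with amoxicillin and 0.10 with tylosin, beside −0.03 and −0.01 over all genes, and 6 of 10 lay above 0 in each. Of the members 8 had a mean log2 value over 6. Over all probe sets with a log2 value over 6 on at least 3 arrays the medians were 0.07 and 0.08. A mean log2 value of 6 or less is called dim here; 12 of the 24 probe sets were dim, among them the brightest of Slc1a4 and Axin2. No probe set of any gene had a Benjamini-Hochberg adjusted limma p under 0.05 in any of the 3 comparisons, and both antibiotics were set against the same 3 control arrays.

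**Figure D1:**
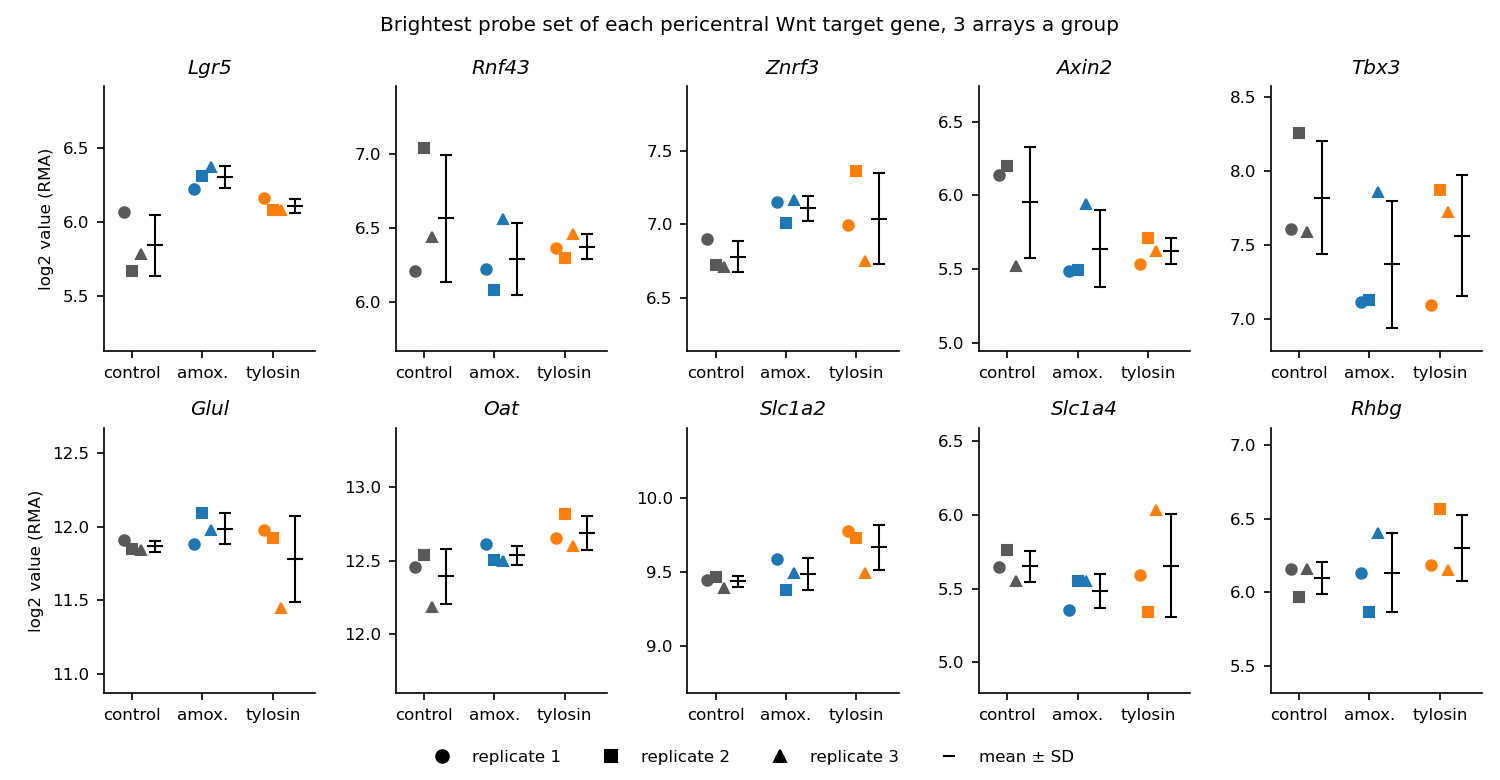
Log2 value (RMA) of the brightest probe set of each of the 10 genes on the 9 arrays. The upper row holds the pathway's feedback genes and Tbx3, and the lower row the metabolic genes. Symbols are single arrays (circle, square and triangle for replicates 1, 2 and 3), bars are the mean ± SD of 3 arrays, and every panel spans the same range of log2 units; all amoxicillin values of Lgr5 and Znrf3 and all tylosin values of Lgr5, Oat and Slc1a2 lie above the 3 control values.

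Cell markers were read first, because the liver is a mixture and in bulk RNA fewer cells of a type and less RNA per cell cannot be told apart. The hepatocyte list (Alb, Ttr, Apoa1, Apob and Tat measured) had a mean log2 value of 13.71 to 13.90 on every array. Alb held the highest value of every array, 14.64 to 14.71. Near that ceiling the list is a weak gauge of hepatocyte content. A pair of arrays stood apart by intestinal transcripts. The mean of 14 intestinal mucosa genes was 6.49 on amoxicillin replicate 1 and 6.20 on tylosin replicate 2, and 4.24 to 4.75 on the other 7 arrays, and that of 6 smooth muscle genes was 6.16 and 6.49 against 4.25 to 4.62. Lgr5 also marks intestinal crypt stem cells, and the mean of 6 other crypt genes was 5.35 and 4.84 on those arrays, against 4.31 to 4.56. Of these crypt genes, Prom1, itself dim, was called, higher with amoxicillin (log2 fold change 1.01), where 1.28% of all genes were called. Prom1 was highest, at 5.56, on amoxicillin replicate 1, but tylosin replicate 2, at 4.27, lay below amoxicillin replicate 3, at 4.51. Olfm4 and Slc12a2 were highest on the arrays with intestinal transcripts, whereas Ascl2, Smoc2 and Cdca7 were not highest on both, so the list did not rise as a whole. Tylosin replicate 3 had the highest mean of the 6 Kupffer cell and macrophage genes, 9.07, where the other arrays had 7.49 to 8.58; on that array Marco was at 10.95 and Clec4f at 7.50, the lowest Clec4f value of the 9. The Actb 3′ minus 5′ difference, a measure of RNA quality, was 1.21 to 1.73 log2 units and highest on tylosin replicate 2.

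**Figure D2:**
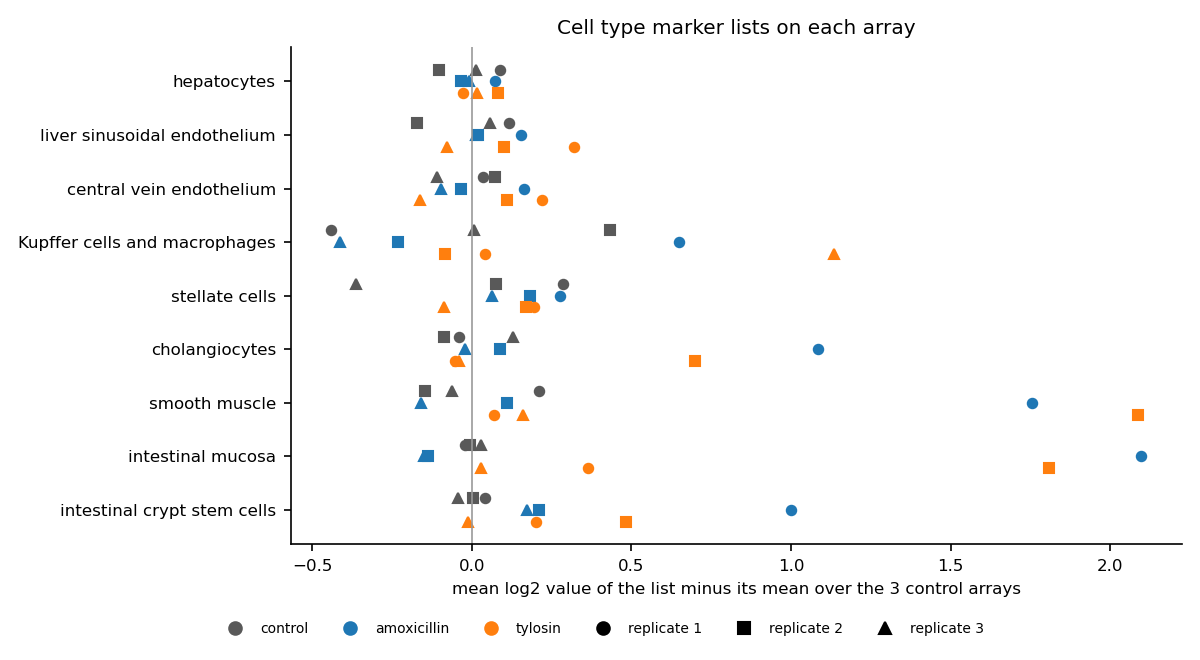
Mean log2 value of each cell type marker list on each array, minus the mean over the 3 control arrays; colour gives the group and shape the replicate. Amoxicillin replicate 1 and tylosin replicate 2 lie apart in the intestinal, smooth muscle and cholangiocyte lists, and tylosin replicate 3 in the Kupffer cell list, while the hepatocyte list stays within a narrow band.

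Among the feedback genes, Lgr5, a receptor for R-spondins (chr10:115450314-115587780; positions are of GRCm38.p6), came nearest to a call. Its control arrays read 6.07, 5.67 and 5.79 (log2), its amoxicillin arrays 6.22, 6.31 and 6.38, and its tylosin arrays 6.16, 6.08 and 6.08. Every PAT array lay above every control array, and the amoxicillin arrays lay above the tylosin arrays. The group means were 5.84 ± 0.21, 6.30 ± 0.08 and 6.11 ± 0.05 (SD, n = 3). The log2 fold change with amoxicillin was 0.46 ± 0.11 (SE; 95% interval 0.22 to 0.71), 1.38-fold on the linear scale (limma adjusted p = 0.20), so it passed the P threshold and missed the fold threshold by a small margin. With tylosin it was 0.27 (0.02 to 0.51; adjusted p = 0.30), and between the antibiotics −0.20 (−0.44 to 0.04). With single arrays left out the tylosin value ran from 0.18 to 0.38, and its unadjusted limma P from 0.0030 to 0.14. The amoxicillin value moved either way with the setting. It was 0.50 with amoxicillin replicate 1 and tylosin replicate 2 both left out, a step added after the data were seen, 0.58 without control replicate 1 and 0.52 after each array was centred on its median, and passed both thresholds in these. It was 0.38 without control replicate 2, 0.38 after quantile normalization and 0.18 as the mean of both probe sets of the gene, and was not called in these. The part of intestinal transcripts in the Lgr5 values was not tested. The other probe set of Lgr5 read 2.94 to 3.31 on all arrays, a dim signal, and differed by −0.11 with amoxicillin.

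Znrf3, a transmembrane ubiquitin ligase that removes Frizzled receptors (chr11:5276329-5444847), read 6.90, 6.73 and 6.71 in controls, 7.15, 7.01 and 7.16 with amoxicillin, and 7.00, 7.36 and 6.75 with tylosin. The amoxicillin arrays lay above all controls, whereas 1 tylosin array lay among them. The log2 fold change was 0.33 with amoxicillin (95% interval 0.01 to 0.64; adjusted p = 0.32) and 0.26 with tylosin (−0.06 to 0.57; adjusted p = 0.41). With single arrays left out the amoxicillin value ran from 0.29 to 0.39, and its unadjusted limma P from 0.011 to 0.11. The tylosin value rested on replicate 2, one of the arrays with intestinal transcripts, and was 0.09 without it. Rnf43, its paralogue with the same action (chr11:87663087-87735539), read 6.21, 7.04 and 6.44 in controls, 6.22, 6.08 and 6.56 with amoxicillin, and 6.36, 6.29 and 6.46 with tylosin. Control replicate 2 stood above all other arrays, and the 3 groups overlapped. Its log2 fold changes were −0.27 (−0.70 to 0.15) and −0.19 (−0.62 to 0.24), and without control replicate 2 they were −0.04 and 0.05. Znrf3 and Rnf43 had point estimates of opposite sign with both antibiotics, with intervals for Rnf43 that include 0; the difference between them was not tested.

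Axin2, the scaffold of the destruction complex that is itself induced by Wnt signalling in many tissues (chr11:108917828-108950783), read 6.14, 6.20 and 5.52 in controls, 5.49, 5.49 and 5.94 with amoxicillin, and 5.53, 5.71 and 5.62 with tylosin. Control replicates 1 and 2 lay above all 6 PAT arrays, and control replicate 3 lay among them. The log2 fold changes were −0.31 (95% interval −0.71 to 0.09; adjusted p = 0.44) and −0.33 (−0.73 to 0.07; adjusted p = 0.41), with −0.02 between the antibiotics. Without control replicate 3 they were −0.53 and −0.54 and passed both thresholds, and without control replicate 2 they were −0.19 and −0.21, so 1 control array decided the call. The gene's other probe set was dim (2.37 to 3.10) and differed by −0.14 and −0.30.

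Tbx3, a T-box transcription repressor that β-catenin induces in liver (chr5:119670534-119684724), had 2 probe sets with a mean over 6. The brighter read 7.61, 8.26 and 7.59 in controls, 7.11, 7.13 and 7.86 with amoxicillin, and 7.09, 7.87 and 7.72 with tylosin. The other read 7.81, 8.49 and 7.50 in controls, 6.57, 6.60 and 7.74 with amoxicillin, and 6.40, 7.50 and 7.41 with tylosin. On both, amoxicillin replicates 1 and 2 and tylosin replicate 1 were the 3 lowest arrays and control replicate 2 the highest, and their values had a Pearson r of 0.95 over the 9 arrays. Their fold changes differed in size, which was not tested. The brighter gave −0.45 with amoxicillin (95% interval −1.03 to 0.13) and −0.26 with tylosin (−0.84 to 0.33). Single arrays moved both values: the amoxicillin value was −0.23 without control replicate 2 and −0.70 without amoxicillin replicate 3, and no call was made in either. The tylosin value was −0.03 without control replicate 2, −0.02 when tylosin replicate 1 was left out and −0.41 when replicate 2 of that group was, again with no call. The other gave −0.96 (−1.80 to −0.13; adjusted p = 0.30) and −0.83 (−1.66 to 0.00; adjusted p = 0.34), with all 3 tylosin arrays below all controls, and was not called either. The remaining 3 probe sets were dim, at 2.51 to 4.53.

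**Figure D3:**
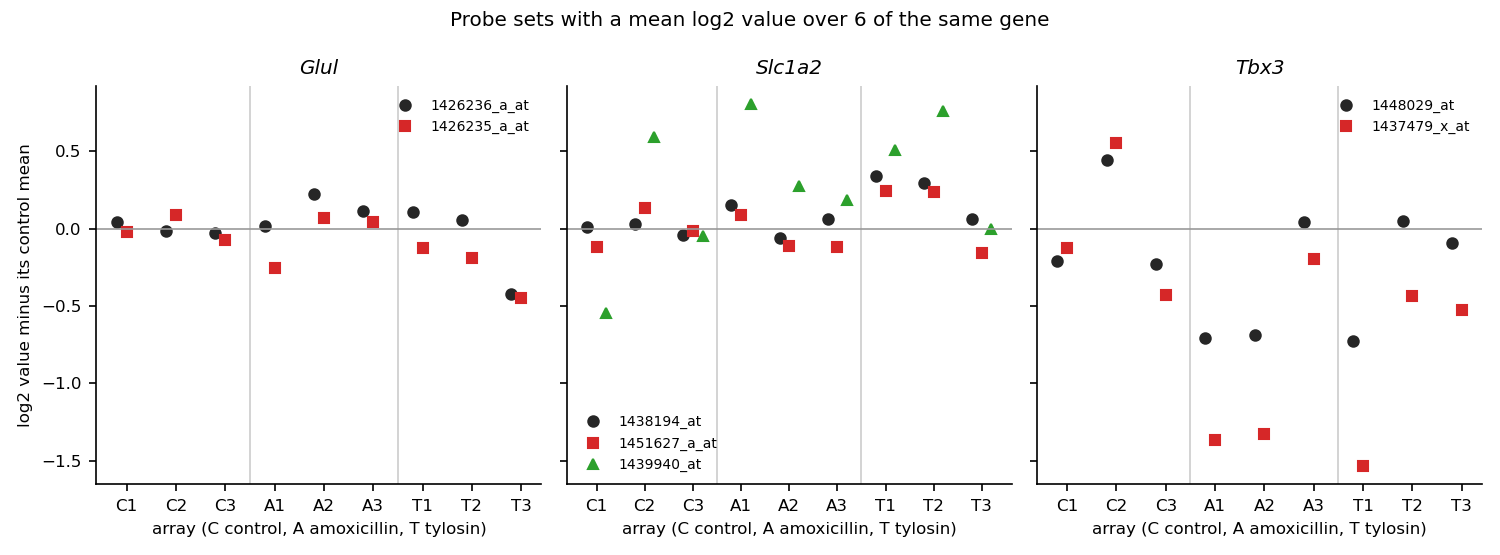
Log2 value of each probe set with a mean over 6 of Glul, Slc1a2 and Tbx3, minus that probe set's mean over the 3 control arrays, for control (C), amoxicillin (A) and tylosin (T) arrays 1 to 3. For Tbx3 both probe sets are lowest on arrays A1, A2 and T1, for Glul both are lowest on array T3, and for Slc1a2 the dimmest of the 3 shown spans the widest range within the control group.

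Of the metabolic genes, Glul, glutamine synthetase, which in liver is made almost solely by the hepatocytes next to the central vein (chr1:153899929-153909723), read 11.91, 11.85 and 11.84 in controls, 11.88, 12.09 and 11.98 with amoxicillin, and 11.98, 11.92 and 11.45 with tylosin. Tylosin replicate 3 stood below every other array, and the other 8 lay close together. The log2 fold change was 0.12 with amoxicillin (95% interval −0.18 to 0.41) and −0.09 with tylosin (−0.38 to 0.21), and the latter was 0.08 without tylosin replicate 3. A second probe set with a mean over 6 read 10.63, 10.74 and 10.58 in controls, 10.40, 10.72 and 10.70 with amoxicillin, and 10.53, 10.46 and 10.21 with tylosin. It too was lowest on tylosin replicate 3, and on it all 3 tylosin arrays lay below all controls (log2 fold change −0.25, −0.52 to 0.01; adjusted p = 0.35). Tylosin replicate 3 was the array with the high macrophage list, whose part in the low Glul value was not tested.

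Oat, ornithine aminotransferase, which turns ornithine towards glutamate (chr7:132557475-132576398), read 12.46, 12.54 and 12.18 in controls, 12.61, 12.50 and 12.49 with amoxicillin, and 12.65, 12.82 and 12.60 with tylosin. All tylosin arrays lay above all controls, and the amoxicillin arrays lay between and among them. The tylosin log2 fold change was 0.29 (95% interval 0.05 to 0.54), 1.23-fold (adjusted p = 0.27), and that with amoxicillin 0.14 (−0.10 to 0.39). Control replicate 3 was the lowest array, and without it the values were 0.19 with tylosin and 0.04 with amoxicillin. The tylosin value no longer had an unadjusted P under 0.05 there, nor with tylosin replicate 2 left out (0.23). Slc1a2, the glutamate transporter GLT-1 (chr2:102658239-102790784), read 9.45, 9.47 and 9.39 in controls, 9.59, 9.37 and 9.49 with amoxicillin, and 9.78, 9.73 and 9.49 with tylosin. Tylosin replicates 1 and 2 were the highest of the 9 arrays, and replicate 3 lay just above the highest control. The tylosin log2 fold change was 0.23 (0.01 to 0.46), 1.18-fold (adjusted p = 0.32), and that with amoxicillin 0.05 (−0.17 to 0.27). With single arrays left out the tylosin value of Slc1a2 ran from 0.18 to 0.32, and its unadjusted limma P from 0.0087 to 0.14. Without the arrays with intestinal transcripts the tylosin values were 0.23 for Oat and 0.20 for Slc1a2. Over the 9 arrays Oat and Slc1a2 had a Pearson r of 0.76, as a description of arrays that share their treatment groups. The other probe sets of Slc1a2 with a mean over 6 gave 0.11 and 0.42 with tylosin (95% intervals −0.17 to 0.39 and −0.20 to 1.05). A dim one, at 3.83 to 4.61, gave −0.48 (−0.75 to −0.20; adjusted p = 0.19), so the probe sets of this gene did not share a direction, and the mean of all of them gave 0.00 with tylosin. Promoter sequences of these 2 genes are shown because they were the metabolic genes whose tylosin arrays lay above all controls. RefSeq's promoter table (GRCm38.p6) held 7 promoters of 6 of the 10 members. The 250 bases before the transcription start are printed from 5′ to 3′ on the gene's strand, at chr2:102706188-102706437 (plus strand, at a start inside the gene's span) for Slc1a2 and at chr7:132576399-132576648 (minus strand) for Oat, with capitals marking the TCF/LEF core letters CTTTGA, or TCAAAG where they read on the other strand.
Slc1a2: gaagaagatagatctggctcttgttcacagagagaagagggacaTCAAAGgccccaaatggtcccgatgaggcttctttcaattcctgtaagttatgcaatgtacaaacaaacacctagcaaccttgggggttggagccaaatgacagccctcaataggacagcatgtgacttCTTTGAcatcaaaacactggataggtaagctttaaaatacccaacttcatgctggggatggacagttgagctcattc
Oat: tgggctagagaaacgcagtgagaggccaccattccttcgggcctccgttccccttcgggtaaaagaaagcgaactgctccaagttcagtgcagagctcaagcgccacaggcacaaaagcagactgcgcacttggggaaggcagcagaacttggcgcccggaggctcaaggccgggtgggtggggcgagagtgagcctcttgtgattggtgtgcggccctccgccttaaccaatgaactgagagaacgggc
The letters CTTTGA were found on either strand in 1 of the 7 member promoters, that of Slc1a2, which held them at bases −77 to −72 on the gene's strand and at −206 to −201 on the other strand. Of all 32851 promoters of 300 bases in the table, 16.0% held them on either strand. A match of letters is a description of the window and not a bound site.

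Slc1a4, a transporter of neutral amino acids (chr11:20302180-20332713), was dim, with a log2 value over 6 on 1 of 9 arrays. It read 5.65, 5.76 and 5.55 in controls, 5.35, 5.55 and 5.55 with amoxicillin, and 5.59, 5.34 and 6.04 with tylosin. Tylosin replicate 3, the array with the lowest Glul, had the highest Slc1a4 value, and the groups overlapped. The log2 fold changes were −0.17 (95% interval −0.51 to 0.18) and 0.00 (−0.34 to 0.35). Rhbg, an ammonium transporter of the hepatocyte membrane (chr3:88242874-88254739), read 6.16, 5.97 and 6.16 in controls, 6.13, 5.87 and 6.41 with amoxicillin, and 6.19, 6.56 and 6.15 with tylosin. The groups overlapped, and amoxicillin replicate 3 and tylosin replicate 2 were the highest arrays. Its log2 fold changes were 0.04 (−0.30 to 0.37) and 0.20 (−0.13 to 0.54). The tylosin value was 0.07 without tylosin replicate 2, one of the arrays with intestinal transcripts, and the amoxicillin value ran from −0.10 without amoxicillin replicate 3 to 0.17 without amoxicillin replicate 2.

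**Figure D4:**
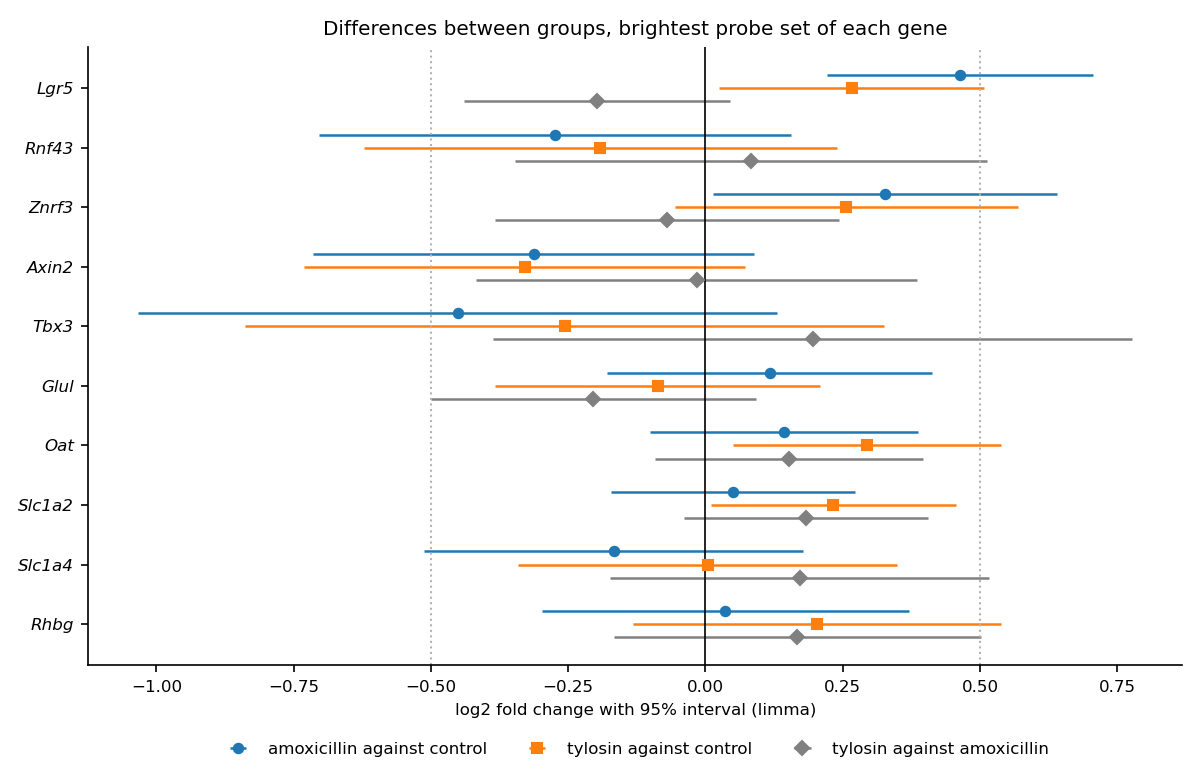
Log2 fold change of the brightest probe set of each gene with its 95% interval from limma, for both antibiotics against control and for tylosin against amoxicillin; dotted lines mark the fold threshold of 0.5 either way. The amoxicillin interval of Lgr5 (0.22 to 0.71) is the farthest from 0, and those of Rnf43, Axin2, Tbx3, Glul, Slc1a4 and Rhbg include 0 in all 3 comparisons.

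Over the 9 arrays the members did not move as one. Of the 45 pairs of members, 22 had a Pearson r above 0, the median r was −0.002, and the range was −0.75 (Slc1a4 with Znrf3) to 0.77 (Tbx3 with Rnf43). Axin2 and Tbx3 had an r of 0.75, and Glul and Slc1a4 of −0.72. Tylosin replicate 3 stood apart in the latter pair, with the lowest Glul value, 11.45, and the highest Slc1a4 value, 6.04. All r values of Glul given here include that array, and none was computed without it. The 5 genes most like Glul, of 7523 with a mean over 6, were Arhgef19 (r = 0.98), Sult3a1 (0.95), Pid1 (0.95), Slc30a10 (0.95) and Nxpe2 (0.94). The 5 most like Axin2 were Txnip (0.92), Pdk4 (0.89), Irs2 (0.88), Rab5if (0.87) and Rflna (0.86). These are the highest of 7523 and 7524 values over 9 arrays and are given as a description only.

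Upstream of the members, 0 of 16 Wnt ligands, R-spondins and their secretion genes were called with either antibiotic. Only 1 of the 16, Wnt2 at 6.04, had a mean over 6, and all others named here were dim. Wnt2, a ligand of the central vein and sinusoidal endothelium, gave −0.20 with amoxicillin and −0.30 with tylosin (95% intervals −0.67 to 0.26 and −0.76 to 0.17). Wnt9b, the other main ligand of the central vein, gave −0.14 and −0.24 at a mean of 3.62. Rspo3, the R-spondin of the central vein, read 5.48, 5.59 and 4.94 in controls and 5.74, 5.69 and 5.62 with amoxicillin. Its amoxicillin arrays lay above all controls (log2 fold change 0.35, 95% interval −0.02 to 0.72), and its tylosin value was 0.22. Wnt3a, also dim, gave −0.37 and −0.48. Wls, which carries Wnts to the cell surface, gave 0.20 and 0.30. The medians of the list were −0.04 and −0.20.

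Of 14 receptors, 0 were called with either antibiotic, and 7 had a limma P under 0.05 with amoxicillin, of which 2 were higher and 5 lower. With tylosin these counts were 1 and 3. Over all genes 15.5% and 16.6% had such a P, and 7 of the 14 receptors had a mean over 6. Lgr4, an R-spondin receptor found across the lobule, gave 0.12 and 0.05, so its point estimates were smaller than those of Lgr5; the difference was not tested. The largest values were those of the Frizzled receptors Fzd3 (−0.47 and −0.50), Fzd5 (−0.44 with amoxicillin) and Fzd8 (−0.46 with tylosin), of which Fzd8 alone had a mean over 6. Of 11 genes of the destruction complex and its Dishevelled regulators, 0 were called with amoxicillin, against 1.28% of all genes. With tylosin 2 were called, both lower, against 1.45% of all genes. Those were Amer1, which brings APC to the membrane (log2 fold change −0.60, adjusted p = 0.18), and Dvl3, a Dishevelled (−0.54, adjusted p = 0.19), both with a mean under 6. Dvl1 gave 0.57 and 0.54 without a call. Apc, a scaffold of the complex, read 7.53, 7.57 and 7.45 in controls, 8.16, 7.76 and 7.77 with amoxicillin, and 8.01, 7.96 and 7.79 with tylosin. All its PAT arrays lay above all controls, with log2 fold changes of 0.38 and 0.41 that passed the P threshold but not the fold threshold (adjusted p = 0.25 and 0.21). Ctnnb1, β-catenin itself, gave 0.11 (95% interval −0.09 to 0.31) and 0.01 (−0.19 to 0.21).

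Of 9 measured TCF and LEF factors and cofactors 0 were called. Tcf7l2, the main TCF of liver, read 6.20, 6.41 and 6.06 in controls, 6.82, 6.56 and 6.66 with amoxicillin, and 7.03, 6.73 and 6.33 with tylosin. Its amoxicillin arrays lay above all controls and 1 tylosin array did not, and the log2 fold changes were 0.45 and 0.47 (95% intervals 0.09 to 0.82 and 0.11 to 0.84). The cofactors Bcl9 and Bcl9l gave −0.30 and 0.28 with amoxicillin and −0.14 and 0.32 with tylosin. Of 14 secreted or intracellular Wnt inhibitors 1 was called, Apcdd1, which fell with tylosin by 0.52 on the log2 scale (adjusted p = 0.19), where 1.45% of all genes were called. Nkd2, Dkk4 and Sfrp1 gave −0.49, −0.34 and −0.36 with amoxicillin, and 1 of the 14 had a mean over 6. Of 11 measured general Wnt targets 0 were called against control. Sox9 gave −0.24 and Ccnd1, cyclin D1, −0.23 with amoxicillin. With tylosin Myc gave 0.68 (95% interval 0.12 to 1.24; limma adjusted p = 0.27) and Cd44, an adhesion receptor, 0.55. Between the antibiotics 1 of the 11 was called, Myc, higher with tylosin, where 0.110% of all genes were called. Myc read 6.92, 6.10 and 7.15 with tylosin against 5.65, 6.32 and 5.64 with amoxicillin (log2 fold change 0.85, limma adjusted p = 1). Of its tylosin arrays 1 lay among the amoxicillin arrays, and its tylosin values were highest on replicates 3 and 1. The medians of these lists lay between −0.17 and −0.01 with either antibiotic. They did not all keep their sign when dim probe sets were filtered out. With amoxicillin the filtered medians were 0.16 for 5 TCF and LEF genes, 0.00 for the 1 inhibitor left and −0.09 for 4 general targets.

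**Figure D5:**
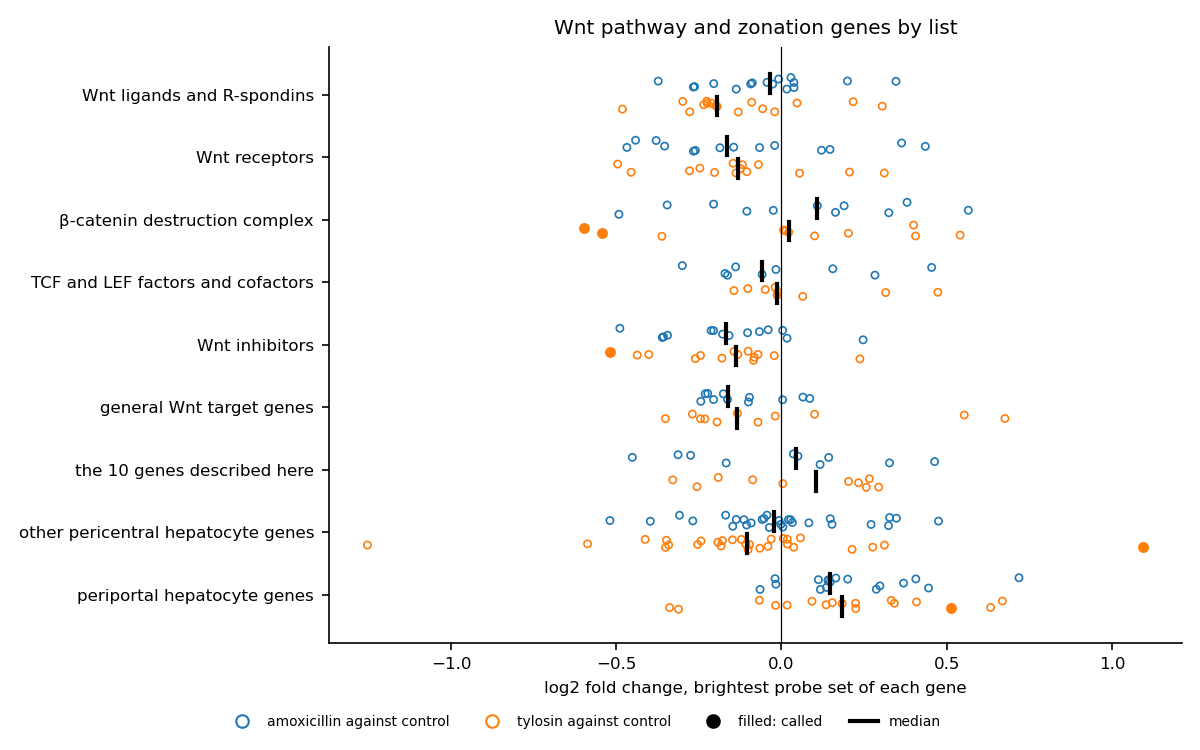
Log2 fold change of each gene's brightest probe set against control, by list, with amoxicillin above and tylosin below in each row; open circles were not called, filled circles were, and black bars are medians. The 10 genes described here hold no filled circle, and among the other lists plotted the called genes are Amer1, Dvl3, Apcdd1, Cyp7a1 and Hal, all with tylosin.

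The other zonation genes were set beside the members. Of 28 measured pericentral hepatocyte genes that are no members, 0 were called with amoxicillin and 1 with tylosin, where 1.28% and 1.45% of all genes were. The called gene was Cyp7a1, which starts the conversion of cholesterol to bile acids and rose with tylosin by a log2 fold change of 1.09 (95% interval 0.65 to 1.54; adjusted p = 0.18). With amoxicillin it gave 0.48 (0.03 to 0.92; limma adjusted p = 0.32) without a call. It read 10.35, 9.55 and 9.91 in controls and 10.82, 11.25 and 11.02 with tylosin, without overlap. Cyp2e1, an ethanol-oxidising cytochrome P450 and a common pericentral marker, gave 0.00 and −0.03, with 95% intervals of −0.18 to 0.17 and −0.21 to 0.14. Its mean of 13.95 lay near the ceiling of the arrays. Cyp1a2 gave −0.14 and −0.35, Csad, of taurine synthesis, −0.52 and −0.59, and Cyp2c54 −0.40 and −1.25. The medians of this list were −0.02 and −0.10, and of the members 0.04 and 0.10.

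Of 17 measured periportal genes, 14 lay above 0 with amoxicillin and 13 with tylosin, with medians of 0.15 and 0.18 beside −0.03 and −0.01 over all genes, of which 44.6% and 46.7% lay above 0. All 17 had a mean over 6. A nearer background for them is all probe sets over 6 on at least 3 arrays, whose medians were 0.07 and 0.08. The mean of the list was highest within each PAT group on the array with intestinal transcripts, at 11.26 on amoxicillin replicate 1 against 10.98 and 10.97 on the others, and at 11.15 on tylosin replicate 2 against 11.05 and 10.95. Without these arrays the medians of the list were 0.13 and 0.20. Only Hal, the histidine-degrading ammonia lyase, was called among the 17, with tylosin (0.51, adjusted p = 0.20), where 1.45% of all genes were called. Ass1 and Cps1, enzymes of the urea cycle, gave 0.63 and 0.18 with tylosin and 0.14 and 0.11 with amoxicillin, without a call. The Ass1 probe set had a mean of 7.03, where that of Cps1 had 13.47. How well this probe set stands for Ass1 was not tested. Etnppl gave 0.67 with tylosin, and Gldc, of glycine cleavage, 0.45 and 0.41. Cdh1 gave 0.72 with amoxicillin and was highest, at 8.17, on amoxicillin replicate 1, the array with intestinal transcripts, whose part in this value was not tested. Cyp2f2, a cytochrome P450 of periportal hepatocytes, gave −0.06 and −0.34. Of the 6 central vein endothelial genes 0 were called, with medians of −0.04 and 0.05. Of these, Thbd, thrombomodulin, gave 0.51 with tylosin.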

How the data were processed

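Liver RNA of 9 mice was hybridised to 9 arrays in 3 groups taken from the sample titles. The deposited table holds log2 expression values, which the authors made with RMA in the affy package (per the submitters' processing notes; versions not given in the sources used here). RMA corrects background, quantile-normalizes and summarizes probes, so differences of dim probe sets are compressed; depth does not apply to arrays, and 3 arrays a group limit the precision. Probe sets were named through the platform annotation, with symbols updated by Entrez ID in RefSeq's gene table (GRCm38.p6); 34958 had 1 symbol, 932 several (not used for naming) and 9211 none. A single limma fit (limma 3.58.1, R 4.3.3) of 3 group means over all 45037 probe sets without controls, tested on simulated data, gave every P, with Benjamini-Hochberg adjustment over all of them. A probe set was called at P under 0.01 and a log2 fold change over 0.5 either way. Dim means a mean log2 value of 6 or less.

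The members and gene lists were chosen with earlier results of these data known. Genes named in the text are the 10 members; from each pathway and zonation list those called and the 2 with the largest log2 fold change with each antibiotic (the rule also covers marker lists of other cell types, given here mostly as list means); a few pathway and zonation genes always; and the 5 genes most like Glul and Axin2 over the arrays. Other genes were named from lists for markers of cell types. Replicate numbers pair nothing: of the 9 same-number pairs of arrays 2 had residuals correlated over 0.1. Alternatives were thresholds, a filter on dim probe sets, 2 normalizations, the variance model, array weights, a fit of 2 groups, the mean of a gene's probe sets, a replicate block, each array left out, and, added after seeing the data, both arrays with intestinal transcripts left out.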

Additional observations from a re-analysis of the deposited data

How the results depend on the processing

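Members called against control numbered 0 higher and 0 lower with each antibiotic, and 0 between the antibiotics. With amoxicillin, 1 member (Lgr5) was called higher after each array was centred on its median (log2 fold change 0.52) and with both arrays with intestinal transcripts left out together (0.50, a step chosen after seeing the data). Leaving out each array in turn gave 0 to 1 members called higher with amoxicillin (Lgr5 without control replicate 1, 0.58, and without amoxicillin replicate 1, 0.50), 0 to 1 called lower with amoxicillin and 0 to 1 called lower with tylosin (Axin2 without control replicate 3 in both). The cause was not tested. With the replicate block the counts were 0, and Lgr5 gave 0.46 with amoxicillin with an unadjusted P under 0.01; the block changed no call. Of 534 values of the members under the alternatives, over 30 results, 6 gained a call, 0 lost one, 0 called values turned sign and 21 uncalled values did. Of 1020 list medians 59 moved by more than the spread between arrays. The 3 arrays a group limit the precision, and Slc1a4 and Axin2 lie in the dim range where differences are compressed.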
